A study of Caenorhabditis elegans with 16 samples.

Results

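The major sperm proteins and the small sperm families of Caenorhabditis elegans are 63 of the 46589 genes in the deposited table. They were chosen by symbol alone, as the genes whose name starts with msp-, msd-, ssp- or nspd- followed by a digit. This gave 35 msp, 4 msd, 12 ssp and 12 nspd genes. The table lists 56 of them as protein-coding and 7 as pseudogenes. RNA was sequenced from whole wild-type N2 worms, the standard hermaphrodite laboratory strain, in 4 groups of 4 libraries. EMBRYO TM worms were given tunicamycin (TM, an inhibitor of N-linked glycosylation) at 1.25 μg/ml in S Medium for 24 h as embryos, and EMBRYO CNT worms were the matched group labelled control. L4 TM worms were given the same dose for 24 h at the last larval stage, L4, and L4 CNT worms were the controls of that stage. All 4 groups were wild type and are described as Day 1 adults, although the headings of the authors' own group means call the EMBRYO groups L1 and the L4 groups D1. After the embryo treatment, larvae were moved to plates and grown to adults. The L4 treatment is described as running from L4 to Day 1 of adulthood, so the time from exposure to collection differed between the stages. RNA of a library came from the worms of a single plate, and the labels do not say whether the plates of a group came from separate populations, so the p-values below measure the spread between these libraries.

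In C. elegans hermaphrodites, sperm are made for a limited time late in larval life, after which the germline switches to making oocytes. The major sperm protein (MSP), encoded by many near-identical msp genes, is among the most abundant proteins of the sperm. It assembles into the filaments that drive the crawling of this amoeboid sperm, and it is also released as a signal that starts oocyte maturation and contraction of the gonadal sheath. The msp genes are transcribed in spermatocytes, before meiosis is completed. The msd genes encode proteins with an MSP domain, and ssp (sperm-specific family, class P) and nspd (nematode-specific peptide family, group D) are families of short genes with expression in the male germline.

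All 35 msp genes lie on 2 chromosomes in the deposited table. Positions are those of the table, for which no genome build was named in the sources used here. There are 15 on chromosome II between positions 4785861 and 5810342, 10 on chromosome IV between 5055593 and 5316944, and another 10 on chromosome IV between 9688982 and 10144175. The members are short, with a median length of 455 bases for msp, 440.5 for msd, 433 for ssp and 334.5 for nspd. Some members of different families are neighbours, such as msp-56, nspd-2 and ssp-10, which start at 9841443, 9844029 and 9850646 on chromosome IV. The members listed at 0 FPKM in all 16 libraries were msp-32, nspd-8 and nspd-12, and the lowest of the others were msp-37, msd-3, ssp-9 and nspd-11. Reads that match several msp copies may have been divided or lost in counting, which makes the value of any one copy less certain than the family sum.

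The libraries held between 12361026 and 47193068 reads on genes. L4 TM replicate 4 was the deepest, and 1 read was the count of 0.702% of the genes it detected, whereas that share was 8.97% to 10.9% elsewhere. Despite its depth, this library also detected the fewest genes, 15377 against 17539 to 21833 elsewhere, and the cause was not tested. Values are FPKM, that is fragments scaled by the authors to gene length and to a library size. That size, recovered from the values, differed from the reads on genes in both directions. It was 21531305 against 18201046 in EMBRYO CNT replicate 3, and 12429276 against 13716456 in EMBRYO TM replicate 3. The median-ratio factor over all 16 libraries was 1.01 in each, so the values were already on that scale. Median-ratio rescaling below was refitted within the libraries of each comparison. Tests were made by limma on log2(FPKM + 1), for genes with a mean of at least 1 FPKM in the libraries compared. A member was called higher above a log2 fold change of 1, or lower below -1, if the Benjamini-Hochberg adjusted p over all genes tested was also below 0.05. Adding 1 FPKM shrinks the change of low genes. The mean of 1 FPKM was reached by 57 of the 63 members in the EMBRYO comparison and by 50 in the L4 comparison.

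The sum of the 35 msp genes was 2618, 2593, 2632 and 2370.4 FPKM in the EMBRYO TM libraries, against 816, 746, 762 and 853 FPKM in the EMBRYO CNT libraries. It was 641, 686, 619 and 808 FPKM in the L4 TM libraries, against 712, 589.9, 671 and 679 FPKM in the L4 CNT libraries. The EMBRYO TM libraries thus stood well above the other 12, and the L4 groups overlapped. The ratio of the mean sums was 3.216 for EMBRYO TM over EMBRYO CNT and 1.04 for L4 TM over L4 CNT. These sums rest on 14729 to 19602 reads in EMBRYO TM, against 5845 to 7346 reads in EMBRYO CNT.

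The msd and ssp sums also did not overlap between the EMBRYO groups, with smaller ratios. The msd sum averaged 149.9 ± 24.8 FPKM in EMBRYO TM, against 101 ± 15.1 FPKM in EMBRYO CNT (SD, n = 4 each), a ratio of 1.49. The ssp sum averaged 194 ± 18.3 FPKM in EMBRYO TM, against 98.7 ± 8.84 FPKM in EMBRYO CNT (SD, n = 4 each), a ratio of 1.96. The nspd sum overlapped between the EMBRYO groups, with 321, 304, 277 and 397 FPKM in EMBRYO TM and 272, 296, 379.9 and 336 FPKM in EMBRYO CNT. The nspd sums separated the EMBRYO groups from the L4 groups, with 81.2, 91.0, 74.6 and 26.8 FPKM in L4 TM and 127, 28.2, 119 and 110.5 FPKM in L4 CNT. The msd and ssp sums did so too. They were at least 87.4 and 91.0 FPKM in the EMBRYO libraries and at most 61.7 and 67.6 FPKM in the L4 libraries. No test was made of the sums. In whole worms, fewer sperm-producing cells and less RNA per cell cannot be told apart.

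**Figure D1:**
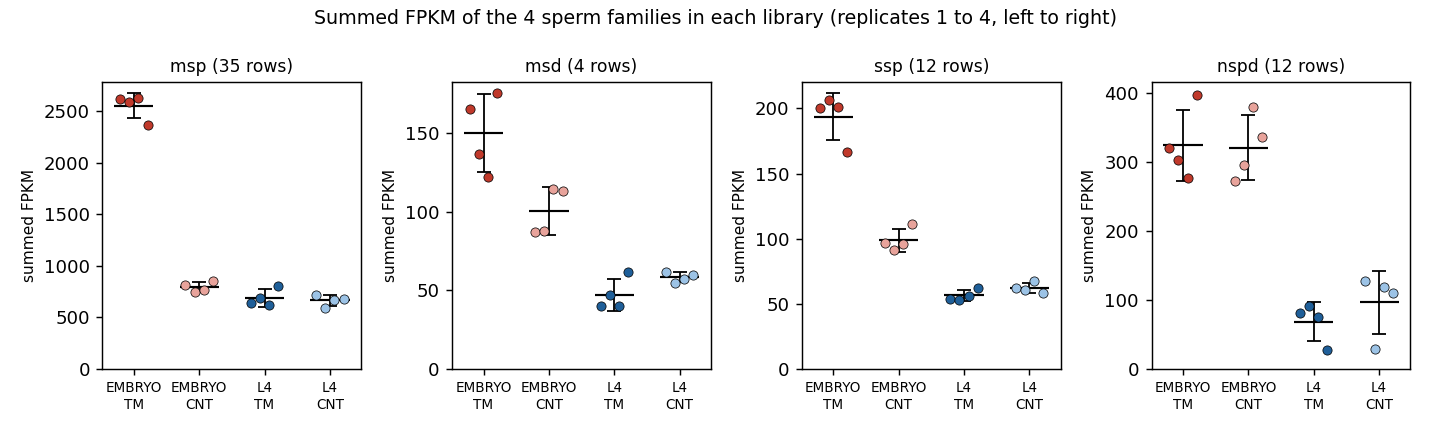
Summed FPKM (y axis, starting at 0) of each sperm family in the 16 libraries, grouped on the x axis; points are libraries, horizontal lines the group means and bars the SD (n = 4). The EMBRYO TM libraries lie between 2370.4 and 2632 FPKM for msp, above all other libraries, whereas the nspd sums of the 2 EMBRYO groups overlap and lie above both L4 groups.

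The first comparison asked how worms given TM as embryos differed from their controls as adults. Of the 33 msp genes tested, 27 rose in EMBRYO TM, 1 fell and 5 did not pass. Of all 14930 genes tested, 5.06% were called higher and 7.61% lower. The median log2 fold change was 1.61 over the msp genes and -0.03 over all genes. The 27 that rose had log2 fold changes between 1.43 and 2.08, and for each of them the lowest EMBRYO TM library was above the highest EMBRYO CNT library. That adds little to the calls, since these 27 had already passed both thresholds and the share of all genes without overlap is not given here. They included 10 of the 14 msp genes tested on chromosome II and 17 of the 19 on chromosome IV, with medians of 1.51 and 1.64 over those tested.

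The msp gene with the highest mean level was msp-57 (R13H9.2, chromosome IV, 5062543 to 5062997). It had 201, 177, 201 and 149 FPKM in EMBRYO TM, against 68.5, 57.4, 64.5 and 77.2 FPKM in EMBRYO CNT. The groups did not overlap, and its log2 fold change of 1.43 was among the smallest of the msp genes called (limma adjusted p = 2.37e-05, standard error 0.12). The second was msp-31 (R05F9.13, chromosome II, 4916179 to 4916562), with 138, 139.8, 121 and 155 FPKM in EMBRYO TM, against 36.8, 38.2, 46.7 and 45.3 FPKM in EMBRYO CNT. It rose by 1.71 on the log2 scale (limma adjusted p = 3.93e-06, standard error 0.11). The third, msp-76 (ZK1251.6, chromosome IV, 9688982 to 9689436), had 165, 169.8, 170.1 and 115 FPKM in EMBRYO TM, against 46.8, 35.4, 37.7 and 38.9 FPKM in EMBRYO CNT. Its replicate 4 was low in EMBRYO TM but still above all 4 controls.

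The largest msp increases were in msp-45 and msp-49, neighbours on chromosome II. msp-45 (F58A6.8, 5156700 to 5157083) had 93.0, 89.6, 86.1 and 104 FPKM in EMBRYO TM, against 18.5, 22.3, 22.1 and 22.2 FPKM in EMBRYO CNT, a difference of 2.08 ± 0.09 (SE) on the log2 scale (limma adjusted p = 5.0e-07). msp-49 (C34F11.6, 5194332 to 5194792) had 64.9, 56.7, 56.2 and 57.6 FPKM in EMBRYO TM, against 11.7, 14.4, 13.8 and 14.6 FPKM in EMBRYO CNT, a log2 fold change of 2.04. In both genes the 2 groups were far from overlapping, although 1 library stood apart from its group, EMBRYO CNT replicate 1 in msp-45 and EMBRYO TM replicate 1 in msp-49. The other called msp genes with small increases were msp-40 and msp-81, at 1.43 each on the log2 scale, with means of 119.8 ± 11.8 and 133 ± 8.34 FPKM in EMBRYO TM against 43.8 ± 5.74 and 48.8 ± 3.96 FPKM in EMBRYO CNT (SD, n = 4 each).

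The single msp gene that fell was msp-42 (F26G1.8, chromosome II, 4787159 to 4787520), which the table lists as a pseudogene. It had 5.01, 3.74, 3.56 and 4.64 FPKM in EMBRYO TM, against 8.68, 8.70, 11.2 and 10.6 FPKM in EMBRYO CNT, so that the groups did not overlap. In both L4 groups it had at most 0.861 FPKM. Its log2 fold change was -1.05 (limma adjusted p = 0.000149, standard error 0.12), and it was within the fold threshold without EMBRYO TM replicate 3 (-0.98) or without EMBRYO CNT replicate 3 (-0.99). The 5 msp genes that did not pass were msp-63, msp-52, msp-58, msp-74 and msp-71, named after their values were seen, with log2 fold changes between 0.22 and 0.80. None of these 5 had a mean above 5 FPKM in either EMBRYO group, and 3 of them are listed as pseudogenes.

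Of the 4 msd genes, 1 rose in EMBRYO TM, and 0 with a pseudocount of 5, which put msd-3 at 0.84. This was the lowest of them, msd-3 (F44D12.7, chromosome IV, 10035638 to 10035967), with 10.8, 13.7, 8.53 and 6.24 FPKM in EMBRYO TM, against 1.52, 1.36, 7.18 and 3.58 FPKM in EMBRYO CNT. The groups overlapped, and its log2 fold change of 1.44 had a standard error of 0.39 (limma adjusted p = 0.0133). The most abundant, msd-4 (C35D10.11, chromosome III, 4868334 to 4868769), had 91.7, 75.7, 64.8 and 92.3 FPKM in EMBRYO TM, against 53.9, 58.5, 72.8 and 71.6 FPKM in EMBRYO CNT. Its log2 fold change of 0.33 did not pass (limma adjusted p = 0.0820). msd-2 and msd-1 were within the fold threshold at 0.77 and 0.83 on the log2 scale.

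The ssp family was split. Of 11 genes tested, 4 rose, 1 fell and 6 did not pass, with a median log2 fold change of 0.80. The most abundant, ssp-10 (K07F5.9, chromosome IV, 9850646 to 9851070), had 52.9, 64.2, 70.6 and 37.2 FPKM in EMBRYO TM, against 14.05, 13.4, 12.5 and 11.3 FPKM in EMBRYO CNT, a difference of 2.02 ± 0.18 (SE) on the log2 scale (limma adjusted p = 2.87e-05). The 2 larger increases of the family were in ssp-19 (2.17) and ssp-11 (2.13), and ssp-34 rose by 1.38. ssp-16, with 14.2 to 19.7 FPKM in EMBRYO TM, against 7.38 to 11.9 FPKM in EMBRYO CNT, did not overlap between the groups but was within the fold threshold at 0.80 on the log2 scale. ssp-35, the second most abundant, had 39.04, 32.6, 25.2 and 33.0 FPKM in EMBRYO TM and 28.9, 25.9, 28.2 and 32.4 FPKM in EMBRYO CNT, which overlapped. ssp-37 had 11.01, 12.9, 14.1 and 5.05 FPKM in EMBRYO TM, against 5.99, 4.24, 4.22 and 5.79 FPKM in EMBRYO CNT. It was within the fold threshold at 0.89 on the log2 scale, and past it without EMBRYO TM replicate 4 (1.18).

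The ssp gene that fell was ssp-32 (F32B6.7, chromosome IV, 9895407 to 9896147). It had 1.24, 1.22, 1.49 and 2.13 FPKM in EMBRYO TM, against 2.91, 4.04, 4.30 and 5.04 FPKM in EMBRYO CNT, which rests on 7 to 40 reads a library. Its log2 fold change of -1.01 (limma adjusted p = 0.00111, standard error 0.17) was at the threshold. It was within it without EMBRYO TM replicate 1 (-0.95) or 2 (-0.95) and without EMBRYO CNT replicate 3 (-0.98) or 4 (-0.92). The gene lies next to msp-77 (9894596 to 9895033) on the same strand, and msp-77 rose by 1.94 on the log2 scale.

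None of the 9 nspd genes tested passed in either direction in the EMBRYO comparison, by limma on FPKM or by voom on the recovered reads. At an unadjusted p under 0.05, 0 were higher and 1 was lower, where 28.5% of all genes were higher and 30.1% lower. The most abundant, nspd-2 (K07F5.5, chromosome IV, 9844029 to 9844337), had 63.2, 67.3, 59.1 and 75.4 FPKM in EMBRYO TM, and 64.5, 51.7, 83.3 and 65.4 FPKM in EMBRYO CNT. The next in level, nspd-1 and nspd-5, also overlapped, with log2 fold changes of -0.12 and 0.27. The lower gene was nspd-3, with 17.8, 19.7, 19.6 and 23.2 FPKM in EMBRYO TM and 22.3, 23.2, 33.7 and 27.5 FPKM in EMBRYO CNT, a difference of -0.38 ± 0.14 (SE) on the log2 scale (limma adjusted p = 0.0411). The family median was 0.02, close to the median of all genes.

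**Figure D2:**
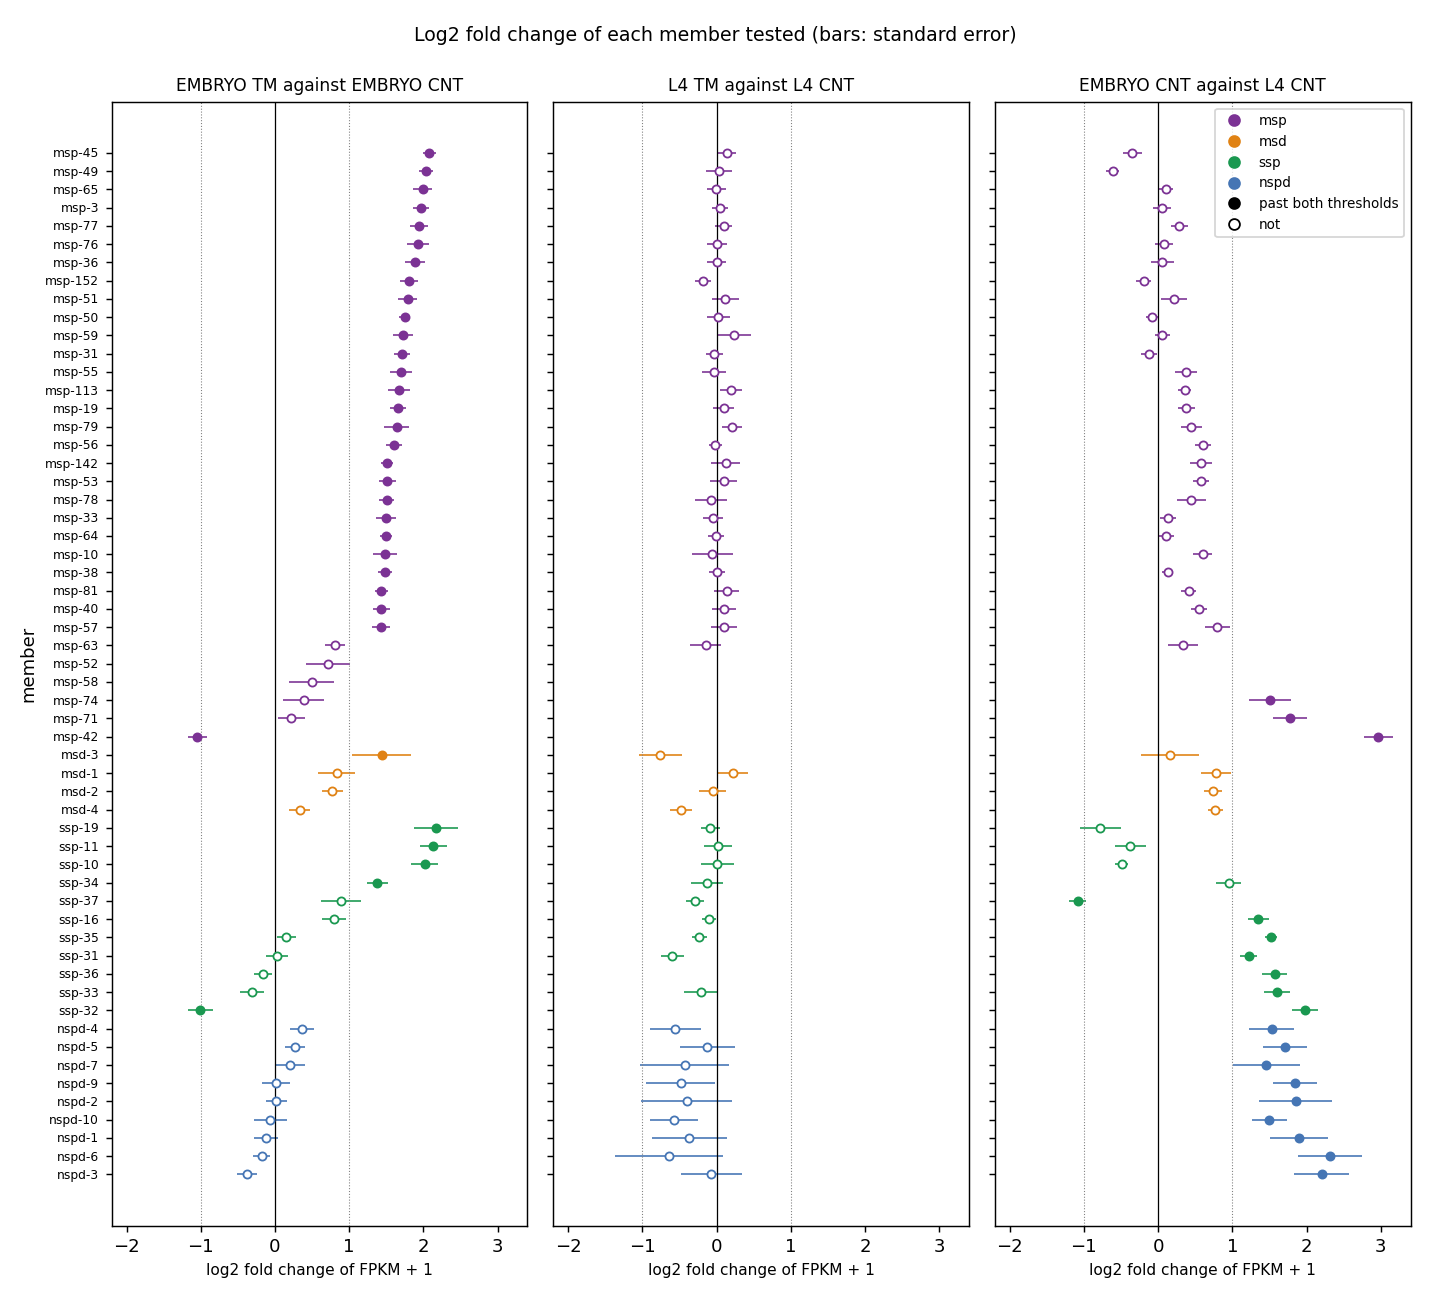
Log2 fold change of FPKM + 1 (x axis) of each member tested (y axis), by family and ordered by the EMBRYO comparison, in 3 comparisons; bars are standard errors and filled points passed both thresholds. In EMBRYO TM against EMBRYO CNT 27 msp genes lie between 1.43 and 2.08, in L4 TM against L4 CNT no member passed, and in EMBRYO CNT against L4 CNT all 9 nspd genes passed.

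The second comparison asked the same of worms given TM at L4. No member passed both thresholds in L4 TM, of 28 msp, 4 msd, 9 ssp and 9 nspd genes tested by limma, nor by voom on reads recovered from the FPKM. Of all 11964 genes tested, 0.585% were called higher and 3.20% lower. At an unadjusted p under 0.05, 0 members were higher and 4 were lower, where 25.9% of all genes were higher and 19.7% lower. By adjusted p alone, 0 members were higher and 2 were lower, where 20.3% of all genes were higher and 15.8% lower. The median log2 fold change was 0.03 over the msp, -0.26 over the msd, -0.13 over the ssp and -0.43 over the nspd genes, and 0.05 over all genes. The nspd value rested on single libraries: it was 0.00 without L4 TM replicate 4, -0.22 without L4 CNT replicate 1, -0.24 without L4 CNT replicate 3, -0.83 without L4 CNT replicate 2 and -0.87 by voom. The msp median was -0.01 after median-ratio rescaling and -0.09 without L4 TM replicate 4 and L4 CNT replicate 2, a fit chosen after the data were seen.

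The levels of the leading msp genes overlapped between the L4 groups. msp-57 had 41.4, 47.2, 39.8 and 35.3 FPKM in L4 TM, and 42.5, 25.3, 43.6 and 43.5 FPKM in L4 CNT. msp-31 had 42.9, 50.6, 38.3 and 46.9 FPKM in L4 TM, and 53.4, 42.2, 45.8 and 41.0 FPKM in L4 CNT. The log2 fold changes of the 28 msp genes tested lay between -0.18 and 0.23. The members past an unadjusted p of 0.05 were named after their values were seen. Both that passed the adjusted p were within the fold threshold. These were msd-4, with 20.6, 26.7, 23.6 and 36.5 FPKM in L4 TM and 38.03, 35.9, 37.9 and 35.6 FPKM in L4 CNT (log2 fold change -0.48, limma adjusted p = 0.0380), and ssp-31, with 3.37, 2.37, 2.12 and 1.62 FPKM in L4 TM and 3.93, 4.45, 4.05 and 3.61 FPKM in L4 CNT (log2 fold change -0.59, limma adjusted p = 0.0172). Those past the unadjusted p alone were msd-3 at -0.76 and ssp-37 at -0.29.

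The L4 libraries were uneven in the nspd genes. nspd-2 had 16.9, 22.1, 13.4 and 5.23 FPKM in L4 TM, and 30.5, 4.33, 25.4 and 24.5 FPKM in L4 CNT. nspd-6 had 6.53, 6.60, 5.17 and 0.101 FPKM in L4 TM, and 11.3, 1.31, 8.28 and 7.76 FPKM in L4 CNT. L4 TM replicate 4 and L4 CNT replicate 2 were thus low in both genes, and each was the lowest of its group in the summed nspd level. In these 2 libraries the other protein-coding genes of 300 to 380 bases differed from the other 3 libraries of the group by a median of -0.37 and -0.10 on the log2 scale, over 119 genes with more than 1 FPKM in every library. EMBRYO TM replicate 4 had the highest nspd sum of its group and, in FPKM, the lowest msp and ssp sums. In reads scaled to the total on genes, its msp sum was instead the highest of its group and its ssp sum was not the lowest. The largest such shift was also in this library, at 0.45 for genes of this length and at 0.43 for 305 genes of 380 to 480 bases. The part of these shifts in the values of the members was not tested. The standard errors of the nspd genes were accordingly large in L4 TM against L4 CNT, up to 0.73. Without these 2 libraries, an alternative chosen after the data were seen, the nspd median was -0.50 and no member was called. Without L4 TM replicate 4 alone the median was 0.00, with 5 of 9 genes above 0, and without L4 CNT replicate 2 alone it was -0.83, so no direction is read from it.

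**Figure D3:**
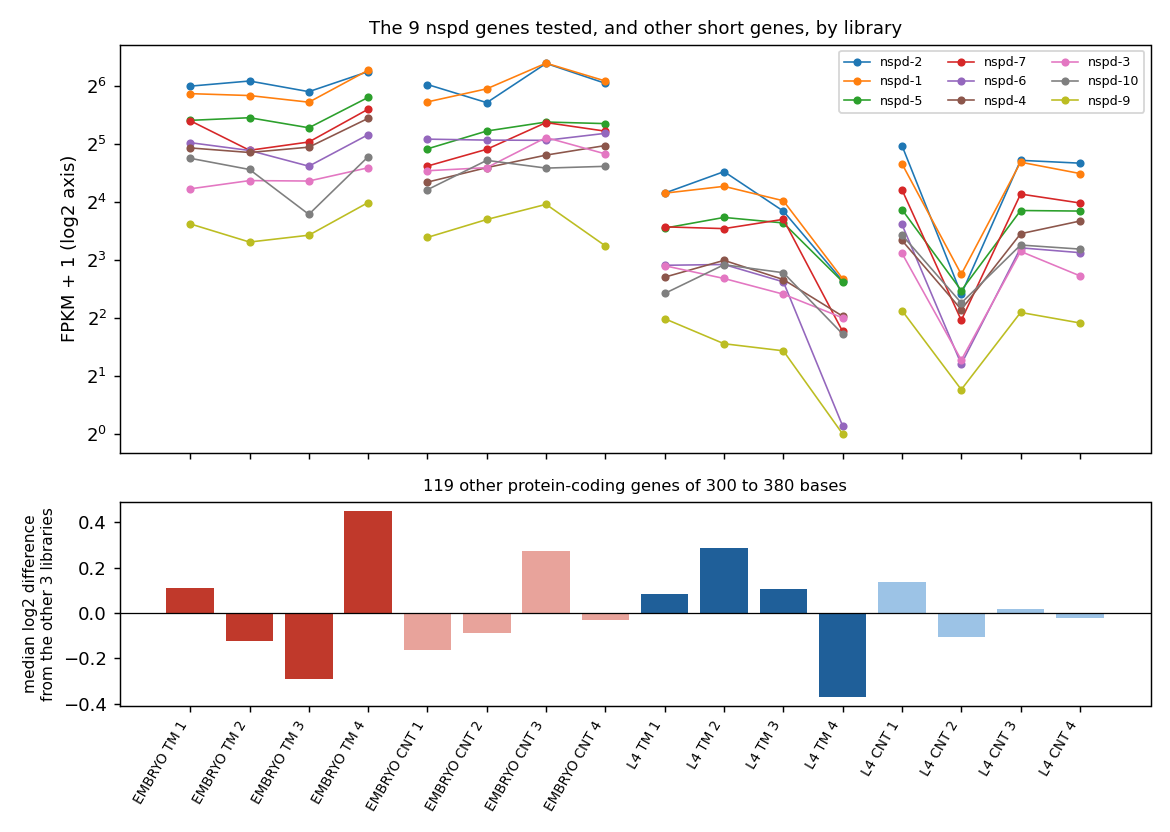
Top, FPKM + 1 (y axis, log2 scale) of the 9 nspd genes tested in each library (x axis), with lines joining the libraries of a group; bottom, median log2 difference of 119 other protein-coding genes of 300 to 380 bases from the other 3 libraries of the group. All 9 nspd genes are lowest of their group in L4 TM replicate 4 and L4 CNT replicate 2, where the median differences are -0.37 and -0.10.

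The balance between msp copies also shifted in some libraries. The ratio of the chromosome II sum to the chromosome IV sum was 0.544, 0.492, 0.466 and 0.700 in EMBRYO TM, against 0.486, 0.558, 0.625 and 0.581 in EMBRYO CNT. In the L4 groups it stayed between 0.638 and 0.651 in L4 TM and between 0.662 and 0.678 in L4 CNT. EMBRYO TM replicate 4 was thus the library richest in chromosome II copies. In L4 TM replicate 4, 6 of 27 msp genes with a mean of at least 5 FPKM had a share of the msp sum that differed by more than 1.5-fold from the other 3 libraries, against at most 1 of 27 in each of the other 15. Without EMBRYO TM replicate 4, 27 msp genes were again called higher.

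The interaction test asked whether the change under TM differed between the stages. Of 31 msp genes tested in all 16 libraries, the change was larger in EMBRYO worms past both thresholds for 27, and smaller for 0. Of all 13856 genes, 6.50% had a larger and 4.22% a smaller change in EMBRYO worms. The same held for 1 of 4 msd genes (msd-3), for 5 of 11 ssp genes (ssp-19, ssp-11, ssp-10, ssp-34 and ssp-37) and for 0 of 9 nspd genes (1 by voom, and 1 with a larger change at an unadjusted p under 0.05, where 19.1% of all genes had a larger and 19.7% a smaller change). The differences were 1.32 on the log2 scale for msp-57, 1.73 for msp-31, 1.93 for msp-76 and 2.01 for ssp-10. ssp-32 was the single member with a smaller change in EMBRYO worms, at -1.04 (limma adjusted p = 0.00372, standard error 0.24), which was within the threshold with any of 5 libraries left out, including L4 CNT replicate 2 (-0.92), EMBRYO CNT replicate 4 (-0.95), L4 TM replicate 4 (-0.97) and EMBRYO TM replicates 2 (-0.98) and 1 (-0.99). The L4 TM and L4 CNT means of ssp-32 were 0.308 and 0.286 FPKM, so it reached the mean of 1 FPKM only through the EMBRYO groups. Adding 1 FPKM holds an L4 change at such levels near 0, so the value largely restates the EMBRYO change of -1.01. Without the 3 uneven libraries, EMBRYO TM replicate 4, L4 TM replicate 4 and L4 CNT replicate 2, 34 members had a larger and 0 a smaller change, in a fit chosen after the data were seen.

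The third comparison set the controls of the embryo treatment against those of the L4 treatment, and shares the EMBRYO CNT libraries with the first, so that the 2 comparisons are not independent. Of 14221 genes tested, 26.1% were called higher and 14.5% lower in EMBRYO CNT, and the median log2 fold change of all genes was 0.08, which moved to -0.07 after median-ratio and to 0.26 after TPM rescaling. The share of higher genes among the calls was 64.3%, against 54.4% after median-ratio and 77.3% after TPM rescaling. All 9 nspd genes tested were higher in EMBRYO CNT, as were 6 of 11 ssp genes and 3 of 31 msp genes, and 1 ssp gene was lower. No msd gene passed by limma or by voom (3 of 4 at an unadjusted p under 0.05, all higher, where 43.5% of all genes were higher and 40.4% lower). The median was 1.85 over the nspd, 1.22 over the ssp, 0.76 over the msd and 0.34 over the msp genes.

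The nspd genes lay between 1.46 and 2.31 on the log2 scale. The largest was nspd-6 (C24D10.8, chromosome IV, 5165420 to 5165841), with 33.1, 32.7, 32.6 and 35.5 FPKM in EMBRYO CNT, against 11.3, 1.31, 8.28 and 7.76 FPKM in L4 CNT. nspd-3, next to it at 5162744 to 5163074, followed with 22.3, 23.2, 33.7 and 27.5 FPKM in EMBRYO CNT, against 7.69, 1.42, 7.89 and 5.63 FPKM in L4 CNT (log2 fold change 2.20, limma adjusted p = 0.000302). nspd-1 (ZK484.8, chromosome I, 6097496 to 6097837) had 52.2, 61.2, 83.5 and 67.3 FPKM in EMBRYO CNT, against 24.4, 5.76, 24.8 and 21.6 FPKM in L4 CNT. No nspd library of EMBRYO CNT reached down to the highest of L4 CNT in these 3 genes. The smallest difference was that of nspd-7 at 1.46. Without L4 CNT replicate 2, which was low in all of them, nspd-7 was within the fold threshold at 0.92, and 8 nspd genes were called.

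The 6 ssp genes higher in EMBRYO CNT were ssp-16, ssp-31, ssp-32, ssp-33, ssp-35 and ssp-36, none of which was called higher in EMBRYO TM, although ssp-16 missed the fold threshold at 0.80. ssp-35 (F55C5.1, chromosome V, 12263368 to 12263845) had 28.9, 25.9, 28.2 and 32.4 FPKM in EMBRYO CNT, against 9.45, 8.89, 10.2 and 8.91 FPKM in L4 CNT, a difference of 1.52 ± 0.08 (SE) on the log2 scale (limma adjusted p = 1.05e-07). ssp-32 was at 1.98, with 2.91 to 5.04 FPKM in EMBRYO CNT and at most 0.539 FPKM in L4 CNT. With L4 CNT means of 0.286 and 0.370 FPKM, ssp-32 and ssp-36 reached the mean of 1 FPKM only through EMBRYO CNT. ssp-16 and ssp-31 were at 1.35 and 1.22, and these 2 had levels of 7.38 to 12.8 FPKM in EMBRYO CNT against 2.72 to 4.45 FPKM in L4 CNT. The 3 ssp genes with the largest increase under TM lay on the other side, with -0.49 for ssp-10, -0.78 for ssp-19 and -0.38 for ssp-11. The adjusted p was under 0.05 for ssp-10 and ssp-19, within the fold threshold, and over it for ssp-11. ssp-37 was lower in EMBRYO CNT, with 5.99, 4.24, 4.22 and 5.79 FPKM, against 12.6, 10.8, 12.4 and 11.2 FPKM in L4 CNT (log2 fold change -1.08, standard error 0.11, limma adjusted p = 1.07e-05). It was within the fold threshold after TPM rescaling.

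**Figure D4:**
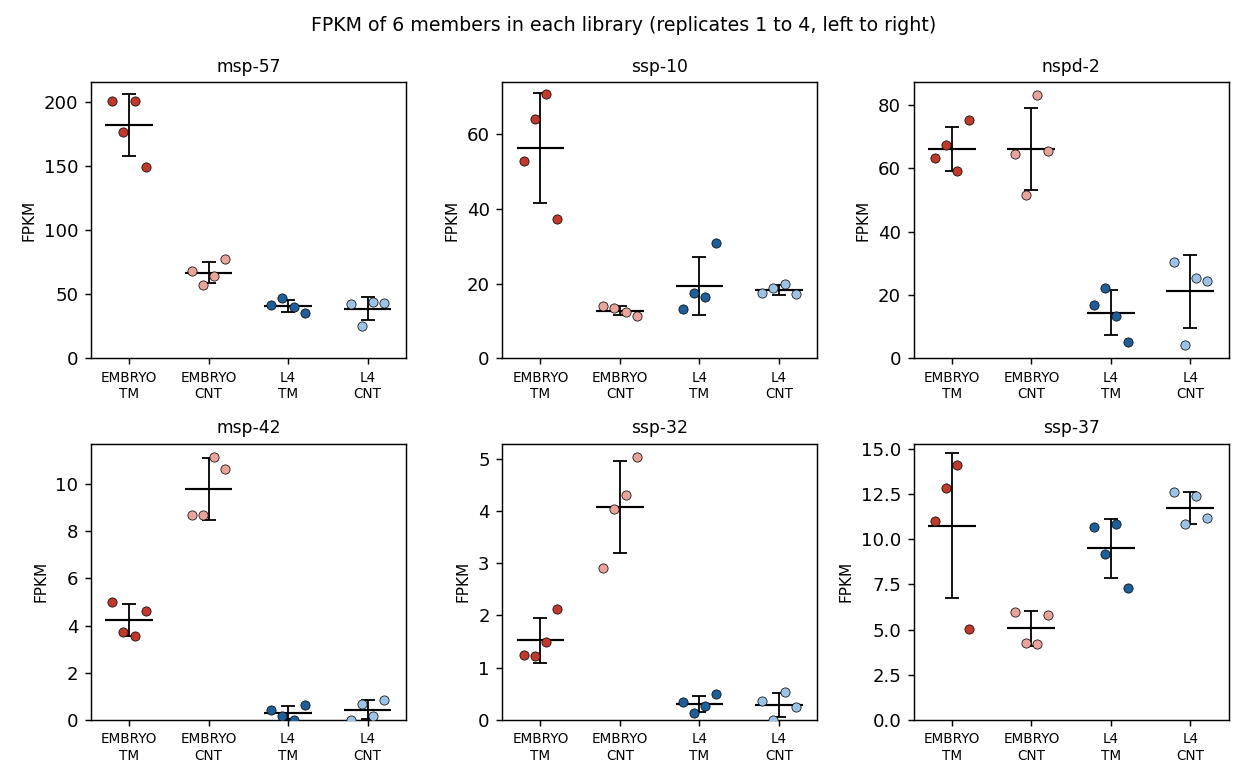
FPKM (y axis, starting at 0) of 6 members in the 16 libraries, grouped on the x axis; points are libraries, horizontal lines the group means and bars the SD (n = 4). msp-57 and ssp-10 are highest in EMBRYO TM, nspd-2 overlaps between the EMBRYO groups and is lower in the L4 groups, msp-42 and ssp-32 are highest in EMBRYO CNT, and ssp-37 is lowest in EMBRYO CNT.

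The 3 msp genes higher in EMBRYO CNT were the low-level msp-42 (2.97), msp-71 (1.78) and msp-74 (1.51). Their L4 CNT means were 0.419, 0.513 and 0.188 FPKM, so they reached the mean of 1 FPKM only through EMBRYO CNT. msp-42 had 8.68, 8.70, 11.2 and 10.6 FPKM in EMBRYO CNT, against 0, 0.652, 0.161 and 0.861 FPKM in L4 CNT, and msp-71 had 3.13 to 4.85 FPKM in EMBRYO CNT against 0 to 1.18 FPKM in L4 CNT. msp-74 rests on 4 to 15 reads a library in EMBRYO CNT and on 0 to 3 in L4 CNT. Without EMBRYO CNT replicate 4 it fell under the mean of 1 FPKM and was not tested, which left 2 msp genes called of 30. None of the 27 msp genes that rose under TM passed both thresholds here. Within the fold threshold, msp-57 was at 0.80 and msp-49 at -0.61 (limma adjusted p = 0.00161 and 0.00011), and msp-45 was at -0.35 (limma adjusted p = 0.0247). Of the 31 msp genes, 26 had a positive log2 fold change, and 18 had one after median-ratio rescaling.

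Other genes of sperm formation, listed by hand, showed both profiles in the EMBRYO TM comparison. Of 5 genes of the related small sperm families, 4 rose. These were ssq-2 (2.25), ssq-4 (1.99), ssq-1 (1.75) and ssq-3 (1.69), of the sperm-specific family, class Q. ssq-4, the highest of them, had 136 ± 30.1 FPKM in EMBRYO TM, against 32.9 ± 4.78 FPKM in EMBRYO CNT (SD, n = 4 each). Of 7 genes of sperm chromatin and the meiotic sperm, spch-3 (1.49), spch-1 (1.43) and spch-2 (1.24) rose, which encode basic proteins of sperm chromatin, and the median was 0.78. htas-1, a sperm histone H2A variant, was at -0.85 with 14.4 ± 3.37 FPKM in EMBRYO TM, against 26.3 ± 1.44 FPKM in EMBRYO CNT (SD, n = 4 each).

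Of 17 genes tested for assembly of the fibrous bodies, in which MSP is packed, and for sperm activation, 3 rose and 0 fell, with a median of 0.31. They were gsp-4 (1.59), a sperm protein phosphatase, spe-18 (1.14), needed for fibrous body assembly, and gsp-3 (1.54), which is named after its value was seen. Of 3 genes tested for sperm-egg interaction, 0 were called by limma, with 1 below an unadjusted p of 0.05, and their median was -0.33. In L4 TM against L4 CNT, none of the 20 genes tested in these 4 lists was called by limma, and 5 were below an unadjusted p of 0.05, where 45.6% of all genes were. By voom, 2 genes were called over all the lists. In EMBRYO CNT against L4 CNT, 26.1% of all genes were higher and 14.5% lower. There, 7 of 7 chromatin genes and 9 of 15 fibrous body and activation genes were higher. So were 2 of 2 sperm-egg genes and 1 of 5 small-family genes, and none of the listed sperm genes was lower. They included htas-1 (2.17), spe-11 (2.01), which encodes a paternal factor needed by the embryo, spe-18 (2.01), comp-1 (1.83), sss-1 (1.23) and spe-47 (1.02). spe-47 was within the threshold without L4 CNT replicate 4 (0.99).

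The regulators of sperm fate and the receivers of the MSP signal had 1 call between them in EMBRYO TM. Of 19 sperm fate regulators, 1 rose, gld-1 (1.00), an RNA-binding translational repressor of the germline, which was within the threshold without EMBRYO TM replicate 2 (0.92) or 3 (0.89) or EMBRYO CNT replicate 2 (0.99) or 3 (0.90). Their median was 0.26, and 5.06% of all genes were called higher in EMBRYO TM. Of 16 genes tested of the response of oocyte and sheath to MSP, such as the Eph receptor gene vab-1 (-0.12), 0 were called in EMBRYO TM by limma (7 below an unadjusted p of 0.05, where 58.6% of all genes were, in either direction), and their median was -0.09. In EMBRYO CNT against L4 CNT, 3 of 19 sperm fate regulators were higher and 6 lower, with fog-3 at 1.94 and gld-1 at -1.50. Of 16 response genes, 5 were higher and 2 lower, with gsa-1 at 2.59 and inx-14 at -1.52. These response counts are near the shares of all genes, 26.1% higher and 14.5% lower. fog-3, which promotes sperm fate, had 3.05 to 4.11 FPKM in EMBRYO CNT against 0.120 to 0.238 FPKM in L4 CNT.

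Markers of other cells were counted in the same tests, and their part in the differences above was not tested. Of 18 germline markers, 2 rose in EMBRYO TM, glh-1 (1.69) and glh-4 (1.01), where 5.06% of all genes did. The median of these markers was 0.41. glh-4 was within the threshold without EMBRYO TM replicate 2 (0.96) or 3 (0.91) or EMBRYO CNT replicate 2 (0.97) or 3 (0.91). Of 20 oocyte markers, 0 were called in EMBRYO TM by limma (7 below an unadjusted p of 0.05, a share under the 58.6% of all genes), with a median of 0.36. The summed oocyte level was 4106 to 7659 FPKM in EMBRYO TM and 4095 to 5658 FPKM in EMBRYO CNT. In EMBRYO CNT against L4 CNT, 12 of 18 germline markers were lower and none higher, with glh-1 at -1.57. Of 20 oocyte markers, 3 were lower and none higher, with puf-11 at -1.09, a share close to the 14.5% of all genes. However, 18 of the 20 were below 0, and their median was -0.64. The median was 0.08 over all genes tested, and -0.35 over genes with a mean of at least 5 FPKM. In the same comparison 9 nspd and 6 ssp genes were higher, where 26.1% of all genes were.

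Somatic markers differed as well. All 6 yolk genes rose in EMBRYO TM. vit-4, the largest change at 7.42, had 437 ± 162 FPKM in EMBRYO TM, against 1.43 ± 0.461 FPKM in EMBRYO CNT (SD, n = 4 each), and it had 1137 ± 114 FPKM in L4 CNT. vit-2 was the smallest at 1.09 and did not pass with any of 6 libraries left out (0.89 to 1.10, with EMBRYO TM replicate 4 and EMBRYO CNT replicate 1 as the exceptions). Of 6 body muscle markers, 3 fell in EMBRYO TM, myo-3 (-1.60), unc-15 (-1.59) and unc-54 (-1.34, and -0.91 without EMBRYO TM replicate 4). Of 6 intestinal markers 2 rose, act-5 (2.29) and vha-6 (1.54), and of 10 moulting markers 2 rose, bli-2 (2.80) and bli-1 (2.02). Over all genes in EMBRYO TM, 5.06% were called higher and 7.61% lower. The lists were not uniform: 2 of the 6 intestinal and 2 of the 10 moulting markers were below 0, and 1 of the 6 muscle markers was above 0. In EMBRYO CNT against L4 CNT, 6 yolk genes were lower, 3 muscle and 5 moulting markers higher, and of the intestinal markers 1 was higher and 3 lower. Over all genes there, 26.1% were higher and 14.5% lower. Of 10 markers of male somatic cells, 0 reached a mean of 1 FPKM in any comparison. Their sum was 1.2 to 1.5 FPKM in EMBRYO TM, 2.1 to 3.1 FPKM in EMBRYO CNT, 0.3 to 0.8 FPKM in L4 TM and 0.6 to 1.0 FPKM in L4 CNT. Among them, cwp-1 and cwp-2 were at 0 in EMBRYO TM, L4 TM and L4 CNT, with at most 0.123 and 0.127 FPKM in any library.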

How the data were processed

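Polyadenylated RNA of 16 whole-worm libraries, 4 per group, was sequenced. The deposited FPKM values were made by the authors; HISAT2 2.0.5 and featureCounts 1.5.0-p3 are named in the submitters' processing notes. The genome build and the treatment of reads matching several copies are not given in the sources used here. FPKM values of 46589 genes were whole multiples of 1 read within 0.01, so reads were recovered for depth and for limma voom. 4 group-mean columns were not used. Symbols came from Ensembl for 43469 genes and from RefSeq for 1859, and 1261 had none. limma 3.58.1 in R 4.3.3 was fitted to log2(FPKM + 1) of genes with a mean of at least 1 FPKM, with a mean-dependent prior and Benjamini-Hochberg adjustment over all genes tested, and was tested on simulated data. Sums and figures used Python 3.11.15, pandas 2.3.3, numpy 2.4.6 and matplotlib 3.10.9. The members and lists were chosen with earlier results of these data known. Named members were the 3 highest and the lowest above 0 by mean FPKM in each family, the 5 largest and 5 smallest changes per comparison, those that moved against their family, and those at 0 throughout. Of the lists, the largest and smallest called change of each, every called gene of lists of at most 10 genes and the 3 highest markers could be named. Other members are named for their position or to list a count, after their values were seen. Alternatives were other pseudocounts, filters and scalings, voom, a replicate block, adjusted p alone, a joint model and each library left out; 2 fits without uneven libraries were added after the data were seen.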

Additional observations from a re-analysis of the deposited data

Results flagged for a closer look

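In some groups 1 library stood apart from the other 3 by more than their spread allows. The msp sum of EMBRYO TM replicate 4 was 2370.4 FPKM, below the 2593 to 2632 FPKM of the others. Its ssp sum was 167 FPKM, below 201 to 207 FPKM. These low sums depend on the scaling. The authors' library size for EMBRYO TM replicate 4 was 18457553, against 15744453 reads on genes. In reads scaled to the total on genes, its msp sum was the highest of its group. Its ssp sum was then within the range of the others. The same library was low in msp-76, at 115 FPKM, and in ssp-34, at 20.4 FPKM, and it had 0.299 FPKM of msp-37, a single read, where the other 3 EMBRYO TM libraries had 0. L4 CNT replicate 2 was low in the nspd sum, at 28.2 FPKM against 110.5 to 127 FPKM, in msp-57, at 25.3 FPKM, and in nspd-5, at 4.56 FPKM. L4 TM replicate 4 was low in ssp-35, at 6.23 FPKM, and in nspd-7, at 2.41 FPKM. Other single libraries apart were L4 CNT replicate 3 in msp-76 (29.8 FPKM) and nspd-11 (0.428 FPKM), L4 TM replicate 3 in msp-37 (0.317 FPKM) and ssp-16 (2.25 FPKM), L4 TM replicate 1 in ssp-9 (0 FPKM), EMBRYO TM replicate 3 in nspd-11 (0.592 FPKM), EMBRYO TM replicate 1 in msp-49 (64.9 FPKM), EMBRYO CNT replicate 1 in msp-45 (18.5 FPKM) and EMBRYO CNT replicate 4 in nspd-6 (35.5 FPKM). Over all members, 25 of 238 combinations of a member and a group had a library apart, where chance gives about 1 in 20. In 4 of the 25 the other 3 libraries were at 0, as for msp-37 and nspd-11 above, which rest on 1 read each and stand apart by construction. Members of one library are not independent, so the count is a description.

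The change under TM differed between the stages, in the limma interaction test, for 15 of the named members. Several of these were named for their change in this same test, so the number is a description only. Of all 13856 genes tested, 6.50% had a larger and 4.22% a smaller change in EMBRYO worms. On the log2 scale, the EMBRYO change minus the L4 change was 1.32 for msp-57, 1.73 for msp-31, 1.93 for msp-76, 1.94 for msp-45, 2.003 for msp-49, 1.33 for msp-40, 1.2996 for msp-81 and 1.39 for msp-142. It was 2.19 for msd-3, 2.01 for ssp-10, 1.51 for ssp-34, 2.25 for ssp-19, 2.12 for ssp-11, 1.18 for ssp-37 and -1.04 for ssp-32. The value of ssp-32 largely restates its EMBRYO change, as its L4 means were 0.308 and 0.286 FPKM.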

How the results depend on the processing

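No called value changed sign. Values near 0 did: with 1 library left out, the log2 ratio of the msp sums in L4 TM ran between -0.03 and 0.10, that of the 4 families between -0.11 and 0.01, and the nspd median in EMBRYO TM was 0.02, against -0.12 without EMBRYO TM replicate 4. Members called lower in EMBRYO TM were 2, against 0 with a pseudocount of 5, 1 with a mean of at least 5 FPKM, 1 after median-ratio rescaling, and 0 to 2 with 1 library left out. With adjusted p alone, L4 TM had 2 lower members, EMBRYO CNT against L4 CNT 34 higher and 5 lower, and the interaction 2 lower, and the listed genes called were 80, 57, 115 and 47 in the EMBRYO, L4, control and interaction tests, against 26, 0, 68 and 22 with both thresholds. Listed genes called in L4 TM were 2 with a pseudocount of 0.1, 1 after median-ratio rescaling, 2 by voom and 0 to 2 with 1 library left out. Between the controls, 18 higher members became 11 with a pseudocount of 5 and 68 listed genes became 36, and the 1 lower member became 2 with a pseudocount of 0.1 or voom and 0 with a pseudocount of 5 or TPM. The 1 lower member of the interaction became 0 with a pseudocount of 0.1 or 5, a mean of at least 5 FPKM, voom or the 3 uneven libraries left out, 2 after TPM rescaling, and 0 to 2 with 1 library left out. The log2 ratio of the summed families was 1.29 in the EMBRYO comparison and 1.17 in reads scaled to the total on genes. Between the controls it was 0.58, against 0.77 in reads scaled that way, 0.78 after TPM and 0.43 after median-ratio rescaling. With a pseudocount of 5, all genes called in the EMBRYO comparison were 427 higher and 440 lower, against 756 and 1136, and by voom 1007 and 1705. With a replicate block the members called were 32 higher and 2 lower in EMBRYO TM, 0 in L4 TM, 18 and 1 between controls and 33 and 1 in the interaction, as without it. Libraries of the same number did not deviate together (correlations -0.16 to 0.08 in the EMBRYO groups, -0.33 to 0.23 in the L4 groups, where 2 of 4 matched their own number best, and -0.03 to 0.09 between the controls), so the numbers were not read as pairs. The causes of these shifts were not tested. Members of few reads and near-identical copies limit single values.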
